A study of Rattus norvegicus with 16 samples.

Results

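The smooth muscle contractile genes described here are Myh11, Tagln, Cnn1, Acta2, Actg2, Mylk, Smtn, Lmod1, Myocd and Rgs5. They were taken from the count files by symbol, and each of the 10 was found once among 32754 gene entries in every library. All 10 had enough counts to be tested, so none was lost to the filter on low counts.

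Each library was made from 10 mg of the right ventricle. The rats were Sprague Dawley females aged 20 to 21 weeks. The 4 groups were ERalpha -/- rats (KO) after pulmonary artery banding (KO PAB), ERalpha -/- rats after sham surgery (KO SHAM), wild-type rats after banding (WT PAB) and wild-type rats after sham surgery (WT SHAM), with 4 libraries in each. Banding narrows the artery that the right ventricle pumps into, and the banded rats carried that pressure load for 10 weeks. Since the labels leave it unsaid whether each library is a different animal, the p-values speak only of the spread among these libraries.

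Total counts were 25778652 to 29210819 in KO PAB, 23270079 to 34718633 in KO SHAM, 27733987 to 32411398 in WT PAB and 22168110 to 27598074 in WT SHAM. Esr1, the gene of estrogen receptor alpha, had 7 to 13 counts in KO PAB, 10 to 21 in KO SHAM, 70 to 131 in WT PAB and 91 to 139 in WT SHAM, so every library matched its genotype label. Markers of ventricular cardiomyocytes summed to 37610 to 71562 CPM (counts relative to the library total, adjusted by the TMM factors of edgeR) in all libraries. A set of 3 libraries with sham surgery, KO SHAM 4, WT SHAM 2 and WT SHAM 3, stood apart by Adipoq, the fat cell hormone adiponectin. Relative to the unadjusted total they had 13.2, 56.5 and 31.0 CPM of Adipoq. KO PAB 3 had 5.51, and the other 12 libraries had 0.374 or less. The banding effects of the 10 genes are therefore described over all 16 libraries and over the 13 left when SHAM libraries with 5 or more CPM of Adipoq are left out, and some values also over 12 libraries, without KO PAB 3 as well. Other values are over all 16 libraries unless a smaller number is named.

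Smooth muscle of the coronary wall contracts when myosin light chain kinase (Mylk) phosphorylates the regulatory light chain of smooth muscle myosin (Myh11), which then pulls on smooth muscle actins (Acta2, Actg2). Calponin (Cnn1), transgelin (Tagln), smoothelin (Smtn) and leiomodin (Lmod1) bind or build the actin filaments. Myocardin (Myocd) is a cofactor of serum response factor, which binds the CArG box in the promoters of many of these genes, and it is made in both smooth and cardiac muscle. Rgs5, a regulator of G protein signalling, marks pericytes and the smooth muscle of small vessels. In bulk tissue, fewer cells of a type and less RNA per cell cannot be told apart.

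Promoter windows from RefSeq (GRCr8, 250 bases before to 50 after the gene start) were available for Cnn1, Acta2, Actg2, Mylk, Smtn and Rgs5, 6 of the 10 genes. They were searched for the CArG box, which runs 2 C, then 6 A or T, then 2 G and reads the same on both strands, with at most 1 base off. Acta2 held 2 matches, at 134 to 125 and at 84 to 75 bases before its start. Smtn held 1, at 110 to 101 bases before its start, and the other 4 windows held none. Of 33469 rat promoter windows of the same length, 21.3% held at least 1 such match, 3.80% held 2 or more and 1.64% held a match with no base off. The 150 bases before the start are shown for Acta2, with 2 matches, Smtn, with 1, and Cnn1, with none, as an example of each number of matches. Whether the number of matches goes with the levels was not tested. Capitals mark the matches, all on the strand of the gene.
Acta2, GRCr8 chr1:241172504-241172653, minus strand: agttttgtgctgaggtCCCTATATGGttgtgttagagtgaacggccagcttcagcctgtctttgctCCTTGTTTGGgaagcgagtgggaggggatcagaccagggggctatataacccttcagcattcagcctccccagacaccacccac
Smtn, GRCr8 chr14:82644515-82644664, minus strand: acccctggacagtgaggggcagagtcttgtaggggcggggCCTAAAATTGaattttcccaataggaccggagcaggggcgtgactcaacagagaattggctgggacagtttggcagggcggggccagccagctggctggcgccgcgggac
Cnn1, GRCr8 chr8:28908287-28908436, plus strand: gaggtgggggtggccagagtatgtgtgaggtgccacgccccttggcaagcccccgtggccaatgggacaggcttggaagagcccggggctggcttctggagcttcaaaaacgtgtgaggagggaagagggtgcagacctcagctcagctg
A match to these letters is a description of the window and shows no binding.

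The levels fell into 2 patterns. Myh11, Tagln, Cnn1, Acta2, Actg2, Mylk and Lmod1, 7 of the 10 genes, had WT SHAM 2, KO SHAM 4 and WT SHAM 3 as their highest libraries, in that order. Smtn shared only the first 2 of these, and Myocd and Rgs5 did not follow the order.

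Myh11 had 32.7, 29.1, 57.3 and 29.2 CPM in KO PAB 1 to 4, against 60.8, 75.2, 83.2 and 503 CPM in KO SHAM 1 to 4. In the wild type it had 82.3, 68.9, 35.1 and 42.5 CPM in WT PAB, against 34.8, 1031, 291 and 107 CPM in WT SHAM. In KO all banded libraries lay below all sham libraries, whereas in the wild type the lowest sham library lay below every banded one. The highest level was 35.4-fold the lowest over 16 libraries and 3.66-fold over the 13.

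Tagln had 16.6, 12.6, 32.2 and 13.0 CPM in KO PAB, against 29.5, 35.7, 61.1 and 329 CPM in KO SHAM. It had 45.0, 48.1, 15.0 and 16.6 CPM in WT PAB, against 15.6, 661, 229 and 61.7 CPM in WT SHAM. The KO groups overlapped only through KO PAB 3, the banded library with Adipoq, and the wild-type groups overlapped widely. Within WT PAB, libraries 1 and 2 lay among KO SHAM 1 to 3 and far below KO SHAM 4. Libraries 3 and 4 were about level with KO PAB outside KO PAB 3.

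Cnn1 varied most over 16 libraries, 220-fold. Over the 13 it varied 12.9-fold and Actg2 16.5-fold. It had 0.979, 0.571, 3.96 and 0.532 CPM in KO PAB, against 2.54, 3.61, 6.84 and 59.7 CPM in KO SHAM. It had 5.23, 5.69, 0.830 and 0.617 CPM in WT PAB, against 1.11, 117, 36.3 and 5.55 CPM in WT SHAM. As for Tagln, KO PAB 3 alone made the KO groups overlap.

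Acta2 had 20.4, 17.6, 43.8 and 46.0 CPM in KO PAB, against 35.5, 43.2, 52.1 and 388 CPM in KO SHAM. It had 50.9, 61.1, 22.4 and 37.3 CPM in WT PAB, against 22.3, 978, 269 and 68.7 CPM in WT SHAM. Here KO PAB 4 was level with the shams, unlike for Myh11 or Tagln. Actg2, the enteric smooth muscle actin, was read at 0.457 to 4.11 CPM in KO PAB, 3.10 to 38.8 in KO SHAM, 0.848 to 7.53 in WT PAB and 1.29 to 55.8 in WT SHAM. The actin genes encode nearly identical proteins and have similar coding sequences. How well reads were split among Acta2, Actg2, the skeletal actin Acta1 and the cardiac actin Actc1 was not tested.

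Lmod1, which starts actin filaments in smooth muscle, ranged over 1.56 to 6.08 CPM in KO PAB, 4.40 to 47.1 in KO SHAM, 2.84 to 6.66 in WT PAB and 2.72 to 112 in WT SHAM. Mylk ranged over 35.1 to 53.8 CPM in KO PAB, 48.9 to 174 in KO SHAM, 45.8 to 78.2 in WT PAB and 37.1 to 318 in WT SHAM. Mylk was the least variable of the 7, with a 9.06-fold range over 16 libraries and 2.23-fold over the 13. The Mylk gene also encodes a non-muscle kinase and the small protein telokin, which the counts per symbol do not separate.

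Smtn had 52.1, 42.1, 40.2 and 45.6 CPM in KO PAB, against 53.5, 42.9, 51.3 and 63.0 CPM in KO SHAM. It had 49.5, 47.6, 45.5 and 45.1 CPM in WT PAB, against 49.8, 71.5, 54.4 and 58.4 CPM in WT SHAM. In the wild type the banded libraries all lay just below the shams, and the whole range over 16 libraries was 1.78-fold.

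Myocd had 37.0, 54.5, 43.5 and 47.8 CPM in KO PAB, against 25.6, 32.0, 36.7 and 39.7 CPM in KO SHAM. It had 45.3, 41.9, 57.8 and 46.0 CPM in WT PAB, against 33.1, 32.2, 33.7 and 37.6 CPM in WT SHAM. Banded libraries lay above all shams in the wild type, and in KO the groups touched only where KO PAB 1 fell below KO SHAM 4. The 3 sham libraries with high Adipoq were not set apart for Myocd.

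Rgs5 had 43.5, 46.6, 38.7 and 47.6 CPM in KO PAB, against 42.3, 60.2, 44.6 and 55.7 CPM in KO SHAM. It had 36.4, 48.0, 54.1 and 64.5 CPM in WT PAB, against 50.5, 41.4, 41.4 and 47.3 CPM in WT SHAM. All groups overlapped.

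**Figure D1:**
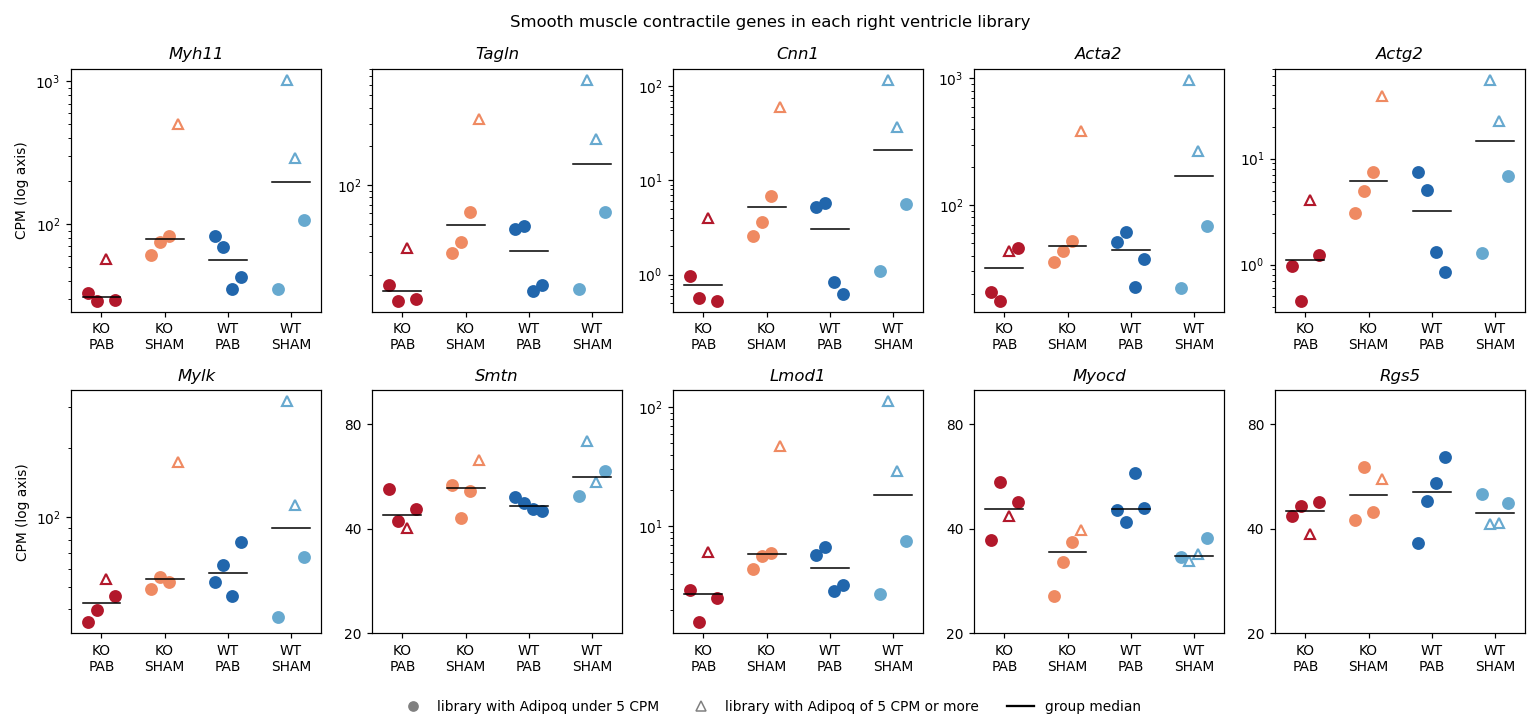
Level of each of the 10 genes in CPM (log axis) in every library, by group, with open triangles for the 4 libraries with 5 or more CPM of Adipoq and a bar at the group median. In 7 panels the 3 highest points are the open triangles of the sham groups, Myh11 reaching 1031 CPM in WT SHAM 2, and in the Myocd panel the banded points sit above the shams but for KO PAB 1, which is below KO SHAM 4.

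The first comparison asks whether these genes differed after banding when the effect is averaged over the genotypes. Over 16 libraries Myh11, Tagln and Cnn1 were lower after banding and Myocd was higher, so 4 of 10 genes passed the test (edgeR quasi-likelihood, Benjamini-Hochberg adjusted p below 0.05 over all 13458 genes tested). Of all genes tested, 5.09% passed, 1.85% as lower and 3.24% as higher. The median log2 fold change of the 10 genes was -2.49, and that of all genes was -0.02. DESeq2 called 8 of the 10, all but Mylk and Rgs5, and 9.94% of the 13445 genes to which it gave an adjusted p.

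Myh11 fell by 2.48 on the log2 scale (SE 0.64, adjusted p = 0.0386), and group means were 37.1 ± 13.6 CPM in KO PAB, 180 ± 215 in KO SHAM, 57.2 ± 22.2 in WT PAB and 366 ± 456 in WT SHAM (SD, n = 4 each). Tagln fell by 2.79 (SE 0.72, adjusted p = 0.0394) and Cnn1 fell by 3.64 (SE 0.98, adjusted p = 0.0476). Lmod1 (-2.66, adjusted p = 0.0508), Actg2 (-2.78, adjusted p = 0.0565) and Acta2 (-2.49, adjusted p = 0.0604) had fold changes as large as these but missed the threshold. So did Smtn at -0.27 (adjusted p = 0.0800) and Mylk at -1.05 (adjusted p = 0.133). Rgs5 differed by -0.02 (SE 0.11, adjusted p = 0.951), and over the 13 libraries by -0.04 (SE 0.13, adjusted p = 0.867).

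Over the 13 libraries Myh11, Tagln and Cnn1 no longer passed, and Myocd was the only gene called. The log2 fold change was -0.64 for Myh11 (SE 0.30, adjusted p = 0.213), -0.74 for Tagln (SE 0.42, adjusted p = 0.312) and -0.81 for Cnn1 (SE 0.68, adjusted p = 0.505). Among the others it was -0.26 for Acta2, -0.43 for Lmod1, -0.87 for Actg2, -0.16 for Smtn and -0.03 for Mylk. The median over the 10 genes was then -0.34 and that of all genes 0.01, while 7% of 13583 genes passed. Without KO PAB 3 as well, the values were -0.79 for Myh11 (adjusted p = 0.136), -0.95 for Tagln, -1.37 for Cnn1 and -1.34 for Actg2, and again Myocd alone passed, against 3.91% of 13521 genes.

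Myocd rose 1.38-fold after banding over 16 libraries (log2 0.47, SE 0.10, adjusted p = 0.0167) and 1.41-fold over the 13 (log2 0.49, SE 0.12, adjusted p = 0.0330). Means were 45.7 ± 7.4 CPM in KO PAB, 33.5 ± 6.1 in KO SHAM, 47.7 ± 7.0 in WT PAB and 34.2 ± 2.4 in WT SHAM (SD, n = 4 each). Over the 13 libraries its banded and sham groups overlapped in neither genotype, which held for 2.8% of all genes in the higher direction. It was called in all 23 alternative fits, with adjusted p from 0.000671 to 0.0479. Myh11 was called in 8 of those fits, Tagln and Cnn1 in 7, Lmod1 in 5, Acta2 and Actg2 in 3, Smtn in 1, and Mylk and Rgs5 in none.

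**Figure D2:**
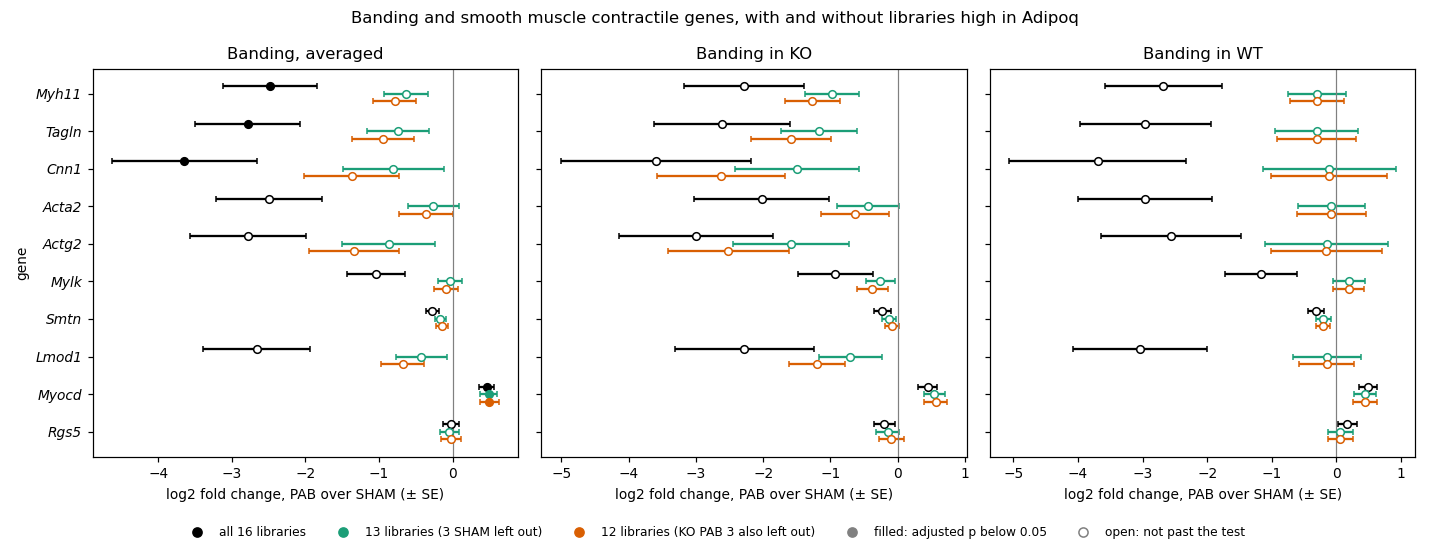
Log2 fold change of PAB over SHAM with its SE for each gene, averaged over genotypes, in KO and in WT, over all 16 libraries (black), 13 libraries (green) and 12 libraries (orange), with filled points for adjusted p below 0.05. Averaged over genotypes, Myh11, Tagln and Cnn1 are filled at -2.48 to -3.64 in black and lie open nearer 0 in the other colours, while Myocd is filled in all 3.

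**Figure D3:**
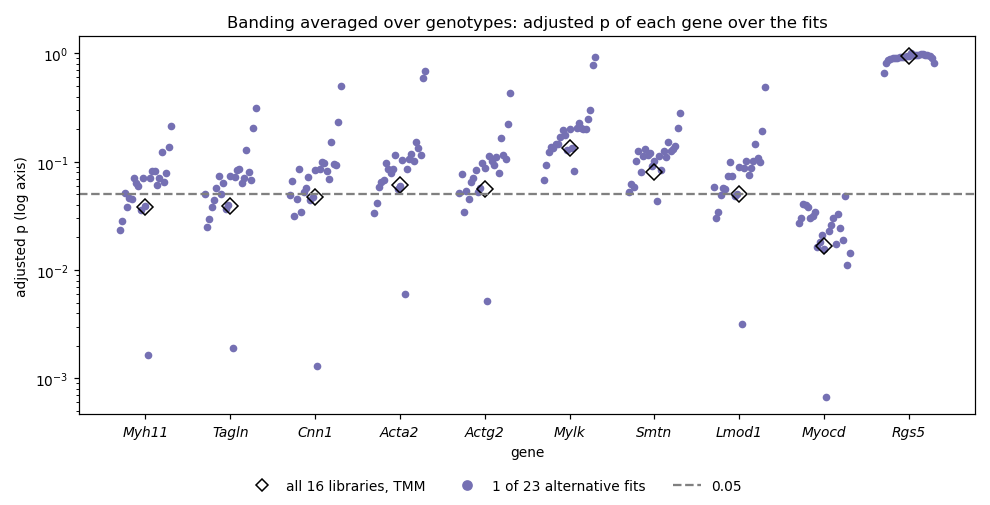
Adjusted p (log axis) of the averaged banding effect for each gene under each of 23 alternative fits (points) and in the fit to all 16 libraries (diamonds), with the threshold of 0.05 as a dashed line. All Myocd points lie under the line, and the points of Myh11, Tagln and Cnn1 lie on both sides of it.

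Banding was then compared within each genotype. In KO, 0 of 10 genes passed in edgeR and 0 in DESeq2, and 0.632% of all genes passed. An unadjusted p below 0.05 was seen for 6 of the 10 and for 15.6% of all genes. Over 16 libraries Myh11 was the one gene whose KO groups did not overlap, with 4.32% of all genes not overlapping in that direction (log2 -2.28, adjusted p = 0.234). Over the 13 libraries it stayed lower without overlap at -0.97 (adjusted p = 0.170), where 10.8% of all genes did so. Myocd was at 0.45 in KO (adjusted p = 0.143) and at 0.54 over the 13 libraries (adjusted p = 0.0677). An unadjusted p below 0.05 was seen for 2 of the 10 over the 13 libraries, against 23.4% of all genes. Over the 12 libraries 0 of 10 genes passed, and 6 had an unadjusted p below 0.05, against 21.2% of all genes. There Myh11 was at -1.27 (adjusted p = 0.126) and Myocd at 0.57 (adjusted p = 0.104). Cnn1 was at -2.63 (adjusted p = 0.158) and Actg2 at -2.52 (adjusted p = 0.154).

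In the wild type, 0 of 10 genes passed in edgeR and 0 in DESeq2, and 0.00743% of all genes passed. An unadjusted p below 0.05 was seen for 8 of the 10 and for 11.7% of all genes. Over 16 libraries the fold changes had the sign seen in KO for 9 of 10 genes, with Myh11 at -2.68 and Lmod1 at -3.04. Over the 13 libraries Myh11 was at -0.30 (SE 0.45), Acta2 at -0.08 (SE 0.52) and Mylk at 0.19 (SE 0.25), each within its SE of 0, while Myocd was at 0.44 (SE 0.18, adjusted p = 0.623). That fit rests on WT SHAM 1 and WT SHAM 4, whose Myh11 levels were 34.8 and 107 CPM. Over 16 libraries Myocd at 0.48 (adjusted p = 0.304) was higher without overlap, as 2.6% of all genes were, and Smtn at -0.32 (adjusted p = 0.380) was lower without overlap, as 2.33% were.

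Genotype made no difference that passed the test. Between KO PAB and WT PAB, 0 of 10 genes passed in edgeR and 0 in DESeq2, 0 had an unadjusted p below 0.05, and 0.00743% of all genes passed. All 10 fold changes were below 0, from -1.11 for Actg2 to -0.06 for Smtn, with a median of -0.48 against -0.00298 for all genes. Over 12 libraries, without KO PAB 3, the median was -0.77, and 5 of the 10 genes had an unadjusted p below 0.05, as did 5.58% of all genes, with Cnn1 at -2.15 (SE 0.92, adjusted p = 0.834) and Mylk at -0.57 (SE 0.21, adjusted p = 0.834). Myh11 and Mylk were then lower in all KO PAB libraries than in any WT PAB library, as were 3.26% of all genes.

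Between KO SHAM and WT SHAM, 0 of 10 genes passed in edgeR and 0 in DESeq2, with 0 at an unadjusted p below 0.05 and 0.00743% of all genes passing. The median was -0.86 over 16 libraries and 0.03 over the 13. The difference of the 2 banding effects, KO minus wild type, passed for 0 of 10 genes in edgeR and 0 in DESeq2, with 0 at an unadjusted p below 0.05 and 0% of all genes passing. Its size was 0.39 for Myh11 (SE 1.21) and -0.03 for Myocd (SE 0.20), and over the 13 libraries it was -0.67 for Myh11 (SE 0.61) and 0.10 for Myocd (SE 0.23).

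The make-up of the contractile transcripts was followed as counts per 100 Myh11 counts in the same library, which needs no scaling between libraries. Tagln stayed between 39.1 and 78.6 and Lmod1 between 5.37 and 10.9, each within 2.02-fold, while Myh11 itself varied 35.4-fold. These were the genes most nearly in step with the smooth muscle myosin. Cnn1 ran from 1.45 in WT PAB 4 to 12.5 in WT SHAM 3, and Actg2 from 1.57 in KO PAB 2 to 9.15 in WT PAB 1. The Cnn1 value was 11.3 to 12.5 in the 3 sham libraries with high Adipoq and 8.26 or less in the other 13.

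Acta2 stood at 57.4 to 94.9 per 100 Myh11 counts in 15 libraries and at 157 in KO PAB 4. The same library had 118 CPM summed over activated fibroblast markers, against 35.9 to 132 in the other KO PAB libraries, and 3456 CPM of the skeletal actin Acta1, against 1658 to 4033. Whether either contributes to its Acta2 value was not tested. The Mylk ratio ran the other way from that of Cnn1, with 30.9 to 38.7 per 100 Myh11 counts in the 3 sham libraries and 62.8 to 184 in the other 13. In CPM Mylk too was highest in those 3 libraries, over a 9.06-fold range against 35.4-fold for Myh11. Per 100 Myh11 counts, Myocd ran from 3.13 in WT SHAM 2 to 187 in KO PAB 2.

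**Figure D4:**
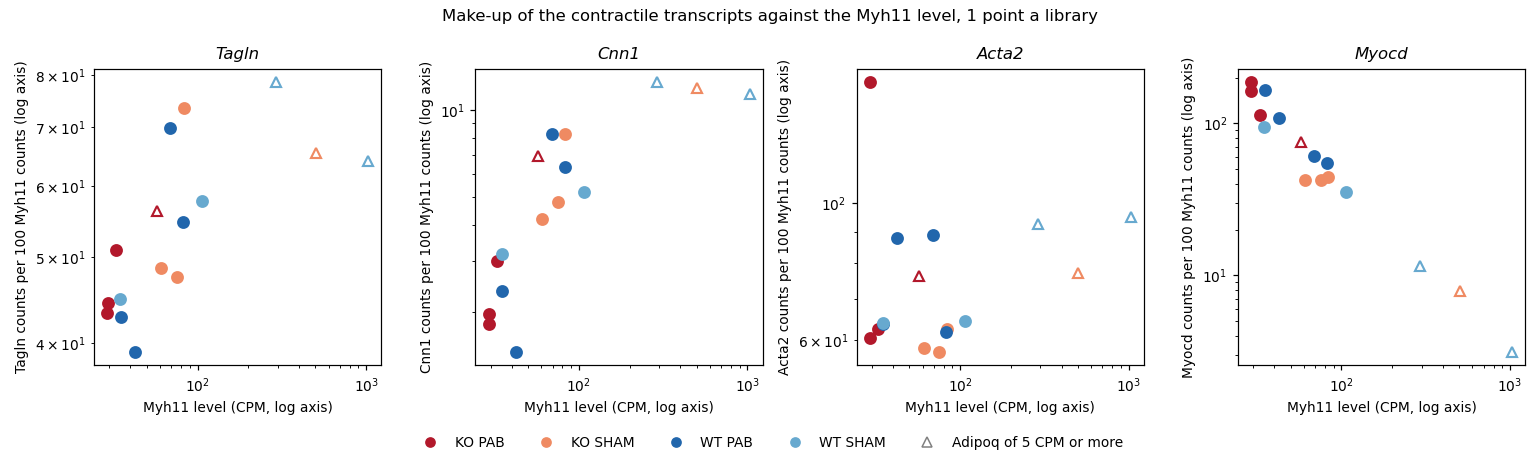
Counts of Tagln, Cnn1, Acta2 and Myocd per 100 Myh11 counts (log axis) against the Myh11 level in CPM (log axis), 1 point a library, coloured by group, with open triangles for 5 or more CPM of Adipoq. Myh11 is in both axes, so a gene that did not vary would fall along a straight line, as Myocd nearly does from 187 down to 3.13. Tagln stays within 39.1 to 78.6, and KO PAB 4 stands above the rest for Acta2 at 157.

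Likeness to Myh11 was ranked over 11046 genes by the Pearson correlation of log2(CPM + 1). These were tested genes with a mean of at least 1 CPM over all 16 libraries and a symbol that is no placeholder (LOC, RGD, AABR or ENSRNOG). Over 16 libraries the order was Tagln, Lmod1, Cnn1, Tpm2, Kcnmb1, Actg2, Acta2, Htra1, Itga8 and Mrvi1, with Mylk at rank 19, Smtn at 484, Rgs5 at 6376 and Myocd at 8042. Tpm2 encodes a tropomyosin, Kcnmb1 the beta subunit of the smooth muscle BK channel, and Itga8 an integrin chain. This order is mostly that of the same 3 libraries. Over the 13 libraries the correlation was 0.97 for Tagln, 0.95 for Actg2, 0.94 for Lmod1 and for Cnn1, 0.81 for Acta2 and 0.62 for Mylk. Dkk2, Mill1, Kcnmb1, Tpm2 and Polg2 came next after the first 4, at 0.90 to 0.85. Kcnmb1 averaged 0.772 CPM over the 13, so it met the minimum only through the 3 sham libraries. Smtn was at 0.40, Rgs5 at -0.22 and Myocd at -0.41, so across these libraries the cofactor and the contractile transcripts did not rise and fall together. The libraries share tissue, protocol and scaling, and the values describe these libraries only.

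Some markers of other cells were high in the same libraries. As the background to the counts of list genes below, 22.7% of all genes had an unadjusted p below 0.05 for averaged banding over 16 libraries and 24.8% over the 13. Msln, which marks the mesothelium on the heart surface, had 42.5 CPM in KO SHAM 4, 43.9 in WT SHAM 2 and 20.5 in WT SHAM 3, and 7.90 or less in the other 13 libraries. The 11 mesothelial markers summed to 13.4 to 19.4 CPM in KO PAB, 14.2 to 117 in KO SHAM, 12.6 to 18.1 in WT PAB and 7.65 to 132 in WT SHAM, with Calb2 at 0 in WT PAB. Of the 10 tested, Bnc1, Lrrn4, Msln and Muc16 fell with banding over 16 libraries in edgeR and DESeq2 called 8, and over the 13 edgeR called 0, with 4 at an unadjusted p below 0.05. Elastic lamina genes summed to 309 to 600 CPM in KO PAB, 239 to 1011 in KO SHAM, 289 to 544 in WT PAB and 287 to 1566 in WT SHAM, with the same 3 libraries highest, and edgeR and DESeq2 called 0 of 10, with 3 at an unadjusted p below 0.05 in edgeR and a median of -0.28. The elastic fibre protein Mfap4 passed as higher over the 13 libraries, where 5 of the 10 had an unadjusted p below 0.05 and the median was 0.53. Over the 12 edgeR called 0 and the median was 0.39. Fibroblast markers summed to 1996 to 3144 CPM in KO PAB, 2273 to 4443 in KO SHAM, 1915 to 2961 in WT PAB and 2196 to 5631 in WT SHAM, again highest in the 3 libraries. Activated fibroblast markers summed to 139 CPM in KO SHAM 4, 216 in WT SHAM 2 and 97.3 in WT SHAM 3, and to 44.7 or less in the other 5 sham libraries. The sums in KO PAB, 35.9 to 132 CPM, overlapped those of the 3 libraries, and the sums in WT PAB, 35.6 to 81.9 CPM, stayed below them. Ventricular cardiomyocyte markers summed to 48323 CPM in KO SHAM 4, 37610 in WT SHAM 2 and 53287 in WT SHAM 3, and to 60591 or more in the other 5 sham libraries. Low sums were not limited to these 3 libraries, since KO PAB 3 had 46485 CPM and KO PAB 4 had 51545. WT PAB had 60316 to 66149 CPM.

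The adipocyte list, taken as a sum, did not set these libraries apart. Its member Plin1, a lipid droplet protein, did, with 2.80 CPM in KO SHAM 4, 11.2 in WT SHAM 2, 10.6 in WT SHAM 3 and 0.770 or less elsewhere. The 9 adipocyte markers summed to 416 to 515 CPM in KO PAB, 438 to 543 in KO SHAM, 478 to 563 in WT PAB and 468 to 543 in WT SHAM, and 47.5% to 63.4% of that sum was Fabp4, which capillary endothelium also makes. Pericyte markers summed to 443 to 545 CPM in KO PAB, 426 to 606 in KO SHAM, 511 to 570 in WT PAB and 446 to 708 in WT SHAM, with KO SHAM 4 and WT SHAM 2 the highest of their groups. For banding averaged over genotypes edgeR called 0 of 13 pericyte markers, with 2 at an unadjusted p below 0.05, and DESeq2 called Steap4 as lower. Of 9 adipocyte markers edgeR and DESeq2 called 0, with 5 at an unadjusted p below 0.05 in edgeR. Of 8 fibroblast markers edgeR called 0, with 3 at an unadjusted p below 0.05, and DESeq2 called Dcn as lower. The part of these other cells in the contractile gene levels was not tested.

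Endothelial markers (0 of 7 called in edgeR and in DESeq2, 1 at an unadjusted p below 0.05) and ventricular cardiomyocyte markers (0 of 10 in edgeR, 3 at an unadjusted p below 0.05, Mybpc3 in DESeq2) gave medians of -0.03 and 0.13. Of 5 atrial cardiomyocyte markers tested, Nppa, the natriuretic peptide that loaded ventricles make, rose by 5.46 on the log2 scale (adjusted p = 0.00176), and DESeq2 called Myl4 as well. With 13 libraries edgeR called Myl7 and Nppa, and with 12 Myl4 too, all as higher. Activated fibroblasts can turn into myofibroblasts, which make Acta2. Their markers gave 0 of 9 calls in edgeR and in DESeq2 over 16 libraries, with 1 at an unadjusted p below 0.05 and a median of 0.20. Over the 13 libraries Cilp, Col8a1, Postn and Tnc passed as higher and the median was 1.57, while Acta2 stood at -0.26. Over the 12 Tnc alone passed and the median was 1.45. Lrrc15 was at 0 in every group. Of 8 markers of visceral smooth muscle, 4 had enough counts to be tested and Synm alone was called in edgeR.

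Of 31 other contractile and cytoskeletal genes tested, 1 rose with banding averaged over genotypes and 0 fell in edgeR, with a median of -0.10. An unadjusted p below 0.05 was seen in edgeR for 13 of the 31, and for 5 over the 13 libraries. DESeq2 called 1 higher and 9 lower, where it called 9.94% of all genes in either direction. The lower ones were Cald1, Csrp1, Flna, Itga8, Kcnma1, Kcnmb1, Mrvi1, Myl9 and Tpm2. The gene called by edgeR was Synm, an intermediate filament protein of smooth and striated muscle (log2 0.82, adjusted p = 0.0272), which had 170 to 311 CPM in KO PAB, 70.2 to 140 in KO SHAM, 107 to 255 in WT PAB and 79.3 to 141 in WT SHAM. It stayed past the test over the 13 libraries (adjusted p = 0.0408) and not over the 12 (adjusted p = 0.0650). Of 16 receptors and relaxant enzymes of vascular smooth muscle, 0 passed in edgeR, with 6 at an unadjusted p below 0.05 and a median of -0.14, and DESeq2 called Gucy1a3, Nos3 and Pde5a. The smallest p there was that of Gucy1a3, a subunit of the nitric oxide receptor, at -0.97 (adjusted p = 0.0703).

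Of 20 genes that control the contractile programme, 2 rose and 1 fell, with a median of 0.01, and DESeq2 called 2 higher and 2 lower, with Tbx18 as the gene edgeR did not call. Tead1, a transcription factor of the Hippo pathway used in cardiac and smooth muscle, had 48.3, 59.1, 51.2 and 54.5 CPM in KO PAB, against 22.2, 32.6, 37.0 and 41.9 CPM in KO SHAM. It had 54.8, 52.7, 40.4 and 44.5 CPM in WT PAB, against 32.5, 32.2, 43.3 and 34.4 CPM in WT SHAM. Like Myocd, Tead1 rose in all 3 fits, at 0.55 over 16 libraries (SE 0.12, adjusted p = 0.0152), 0.67 over the 13 (adjusted p = 0.0169) and 0.67 over the 12 (adjusted p = 0.0255). Foxo4, which in mouse represses myocardin activity, rose by 0.37 (adjusted p = 0.0200), and Hey2, a Notch target, fell by 0.59 (adjusted p = 0.0418). Neither passed over the 13 libraries, where Foxo4 stood at 0.28 (adjusted p = 0.0599) and Hey2 at -0.38 (adjusted p = 0.0503). Gata6, named here after its values were seen, passed as lower over the 13 and over the 12 libraries.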

How the data were processed

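Stranded mRNA libraries were made from total RNA (TruSeq Stranded mRNA), per the labels' protocols. The deposited values are expected counts, given as whole numbers for each gene symbol. STAR 2.5.3a and RSEM 1.3.0 are named in the submitters' processing notes, as is the build Rnor_6.0. The annotation, the strand setting and the rounding are not given in the sources used here. Overlaps were looked up in GRCr8, which is not that build. There 4 annotated genes overlap the span of Mylk, 1 of them with a symbol of its own, the pseudogene Kxd1-ps1. Lmod1 and Myocd are each overlapped by 1 gene without a symbol of its own, and the rest by none.

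Counts were fitted with edgeR 4.0.16 in R 4.3.3, with TMM scaling, filterByExpr (min.count 10), robust quasi-likelihood dispersion and 4 group means. This left 13458 genes, which hold over 99.9% of the counts of each library. Adjustment was by Benjamini-Hochberg over all of them, with calls at an adjusted p below 0.05. The SE is the log2 fold change over the square root of F. The procedure was tested on simulated data.

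Named beside the 10 genes are those of each other list that passed in at least 1 comparison, otherwise the one with the smallest p for averaged banding, and the 5 genes most like Myh11. Some genes of those lists that only DESeq2 or a fit with fewer libraries called are named too, chosen after their values were seen. The genes and lists were chosen with earlier results of these data known. Alternatives were RLE size factors, DESeq2 1.42.0, no filter, a stricter filter (1 CPM in 4 libraries), a block for the replicate number, only the groups compared, leaving out each library, and leaving out libraries by Adipoq. Leaving out KO PAB 3 with the 3 sham libraries was added after the data were seen.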

Additional observations from a re-analysis of the deposited data

Results flagged for a closer look

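In a group of 4 libraries, a single library was marked when its gap to the nearest other exceeded Dixon's critical value for the range of the group. Of 40 sets of 1 gene in 1 group, 9 were marked. Chance marks about 1 in 20 where values are independent and normally distributed. These sets share libraries and most marks are of KO SHAM 4, so the 9 cannot be set against that rate.

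In KO SHAM, library 4 stood apart from the other 3 for 7 genes, with 503 CPM of Myh11, 329 of Tagln, 59.7 of Cnn1, 388 of Acta2, 38.8 of Actg2, 174 of Mylk and 47.1 of Lmod1. It is the KO SHAM library with 13.2 CPM of Adipoq relative to the unadjusted total and 42.5 CPM of the mesothelial marker Msln. In KO PAB, library 3 stood apart for Myh11, at 57.3 CPM, and for Cnn1, at 3.96 CPM. It is the KO PAB library with 5.51 CPM of Adipoq on that scale, and its Msln level was 0.770 CPM. Whether RNA of other tissue sets these levels was not tested. WT SHAM had no marked library for these genes, since WT SHAM 2 and WT SHAM 3 were both high.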

How the results depend on the processing

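For banding averaged over genotypes, 4 of the 10 genes passed, and the count depended on the fit. DESeq2 called 8, the fit with no filter on low counts 1, the fit with the replicate number as a block 1, and the fits without the sham libraries high in Adipoq, or without all libraries high in Adipoq, 1 each. Leaving out 1 library gave 1 to 7 calls. The count was 7 without WT SHAM 1 or WT SHAM 4 and 2 without KO SHAM 3 or KO PAB 3. It was 1 without WT SHAM 2, WT SHAM 3, KO SHAM 4, KO PAB 1, KO PAB 2, KO PAB 4 or any WT PAB library. The gene called in each of these fits was Myocd. The replicate numbers did not pair the libraries, since same-numbered libraries correlated at -0.62 to 0.56 and 3 of 16 correlated best with one of their own number. In the other 5 comparisons 0 of 10 genes passed in every alternative.

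Directions changed only among values that did not pass. Without the sham libraries high in Adipoq, Mylk in WT banding stood at 0.19, as it did without all libraries high in Adipoq (0.19). The effect of genotype in SHAM then turned to 0.052 for Myh11, 0.13 for Tagln, 0.37 for Cnn1, 0.33 for Actg2, 0.00055 for Mylk and 0.066 for Lmod1, and without all libraries high in Adipoq to 0.044 for Myh11, 0.12 for Tagln, 0.36 for Cnn1, 0.33 for Actg2 and 0.058 for Lmod1. The interaction turned to -0.67 for Myh11, -0.87 for Tagln, -1.39 for Cnn1, -0.36 for Acta2, -0.45 for Mylk, -0.56 for Lmod1 and 0.10 for Myocd without the sham libraries. Without all libraries high in Adipoq it was -0.96 for Myh11, -1.27 for Tagln, -2.52 for Cnn1, -0.55 for Acta2, -0.57 for Mylk, -1.05 for Lmod1 and 0.13 for Myocd, and with the replicate block it was -0.32 for Cnn1.

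Leaving out 1 library moved averaged banding from -0.083 to 0.050 for Rgs5. It moved genotype in SHAM from -2.33 to 0.33 for Myh11, -2.53 to 0.16 for Tagln, -3.23 to 0.35 for Cnn1, -2.95 to 0.12 for Acta2, -2.08 to 0.41 for Actg2, -1.36 to 0.20 for Mylk, -2.84 to 0.27 for Lmod1 and -0.12 to 0.082 for Myocd, and genotype in PAB from -0.16 to 0.043 for Myocd. It moved the interaction from -0.95 to 1.71 for Myh11, -0.90 to 1.79 for Tagln, -1.37 to 2.21 for Cnn1, -0.53 to 2.53 for Acta2, -1.51 to 0.98 for Actg2, -0.64 to 0.92 for Mylk, -0.016 to 0.20 for Smtn, -0.76 to 2.35 for Lmod1 and -0.14 to 0.070 for Myocd. The cause was not tested.

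With 2 WT SHAM libraries left after the Adipoq rule, the wild-type banding effect, the effect of genotype in SHAM and the interaction all rest on them. Over the 13 libraries the SE of Myh11 was 0.45 for wild-type banding, 0.48 for genotype in SHAM and 0.61 for the interaction. In KO PAB 2, Actg2 had 12 counts and Cnn1 15, so their levels there are read from few counts. Without the sham libraries high in Adipoq, fewer samples were left and the SE of Myh11 for averaged banding was 0.30, against 0.64 with them.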
